A study of Homo sapiens with 8 samples.

Results

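The genes described here encode conjugating enzymes of the liver and the supplier of one of their cofactors. They are 5 UDP-glucuronosyltransferases (UGT1A1, UGT2B4, UGT2B7, UGT2B10 and UGT2B15), the UDP-glucose dehydrogenase UGDH, and 3 sulfotransferases (SULT1A1, SULT1E1 and SULT2A1). The 9 genes were chosen by name, and every array probe annotated with 1 of these symbols was followed. That gave 15 probes, of which 10 were detected on at least 2 arrays. They measured 8 of the 9 genes, out of 20046 genes with a named probe and 11031 genes tested. SULT1E1 was the gene without a detected probe.

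Liver cell cultures were profiled with Illumina HumanHT-12 v4 arrays, which read biotin-labelled RNA in 1 colour on beads that carry oligonucleotide probes. Human liver cells were kept for 5 days in 1 of 3 formats, with no drug or genetic change recorded for any group. The 2D group was monolayer culture on 3 arrays. The static 3D group, also on 3 arrays, was cultured in MatriGrid scaffolds, a microporous polycarbonate support, placed in wells without flow. The perfused 3D group was cultured in the same scaffold inside a bioreactor fed by a peristaltic pump, and 2 arrays of it were analysed. Monolayers were seeded with fewer cells than scaffolds. The labels give a hepatocarcinoma line, HepG2, as the cells of every sample, while their source name and the design text speak of hepatocytes from several donors, so the nature of the cells is not settled by the labels. Replicate numbers here are names only, and nothing in the labels ties an array to a separate culture or donor, so the p-values measure the spread between these RNA samples.

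Conjugation is the second stage of drug and hormone clearance in hepatocytes. UGT enzymes sit in the membrane of the endoplasmic reticulum and attach glucuronic acid, taken from UDP-glucuronic acid, to bilirubin, bile acids, steroids and drugs. UGDH makes that cofactor from UDP-glucose. SULT enzymes work in the cytosol and attach a sulfate group taken from the donor PAPS, and the conjugates of both families leave the cell through transporters for bile or blood.

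The UGT1A genes lie in 1 locus where each has a first exon of its own, with its own promoter, and all share the remaining exons. The UGT2B genes are separate, similar genes. In the RefSeq annotation of GRCh38.p14, UGT1A1 lies at chr2:233760270-233773300. UGT2B15 (chr4:68646597-68670652), UGT2B10 (chr4:68815994-68832023), UGT2B7 (chr4:69051375-69112987), UGT2B4 (chr4:69480165-69526014) and SULT1E1 (chr4:69821122-69860145) lie within 1.21 Mb of chromosome 4. UGDH lies on the same chromosome at chr4:39498755-39527439, SULT1A1 at chr16:28605258-28623375 and SULT2A1 at chr19:47870467-47886315.

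Promoter sequence from RefSeq, as the GRCh38.p14 reference, was at hand for 7 of the 9 genes, in windows from 250 bases before to 50 bases after each start. The stretches below are shown because UGT1A1 differed in pattern from its relatives on the arrays, while UGT2B10 and UGT2B15 had similar profiles and UGT2B7 sat near background. In the UGT1A1 stretch, at chr2:233760160-233760224 on the plus strand, the capitals mark the HNF1 half-site GTTAAT read on the opposite strand. In the 3 UGT2B stretches the capitals mark the longest run of bases that all 3 windows share. The UGT2B7 stretch is chr4:69096224-69096343 on the plus strand and lies inside its annotated gene, the UGT2B10 stretch is chr4:68815744-68815863 on the plus strand, and the UGT2B15 stretch is chr4:68670783-68670902 on the minus strand. All are written 5′ to 3′ along the gene's own strand.
UGT1A1: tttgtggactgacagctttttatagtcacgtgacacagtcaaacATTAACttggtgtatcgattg
UGT2B7: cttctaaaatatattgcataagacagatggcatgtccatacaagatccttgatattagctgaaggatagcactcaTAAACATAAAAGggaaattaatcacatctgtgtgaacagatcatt
UGT2B10: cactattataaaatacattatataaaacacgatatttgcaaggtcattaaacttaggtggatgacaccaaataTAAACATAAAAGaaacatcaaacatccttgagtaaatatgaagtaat
UGT2B15: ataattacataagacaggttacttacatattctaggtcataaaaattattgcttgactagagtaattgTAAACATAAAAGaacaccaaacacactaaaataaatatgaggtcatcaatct

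The shared run TAAACATAAAAG is 12 bases long and begins 175, 177 and 182 bases before the start of UGT2B7, UGT2B10 and UGT2B15. It occurs on either strand in 6 of 35097 human promoter windows (0.0171%), and 4 of those 6 belong to UGT2B genes, UGT2B11 being the fourth. Over the whole windows the UGT2B10 and UGT2B15 promoters were identical at 77.0% of 283 aligned bases. UGT2B7 matched UGT2B10 at 70.6% and UGT2B15 at 71.5%.

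A search of both strands for 6 short words of liver and core promoter motifs found few of them. The HNF1 half-site GTTAAT lay in the windows of UGT1A1 and SULT1E1, and in 6.88% of all windows. The nuclear receptor half-site AGGTCA lay in those of UGT2B10 and UGT2B15 (13.8% of all), and the FOXA word TGTTTAC in that of UGT2B15 (3.43% of all), where it overlaps the shared run. TATAAA lay in those of UGT1A1, UGT2B10 and SULT1E1 (11.5% of all). The HNF4 direct repeat CAAAGTCCA and the C/EBP word TTGCGCAA lay in none of the 7 (0.385% and 0.151% of all). These are matches of letters only. Whether promoter sequence has a part in the array profiles was not tested.

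Array medians of the deposited intensity were 279 to 386, and 29.7% to 34.3% of probes were detected, that is, had a detection p under 0.05. Levels below are log2 intensities after background correction and quantile normalisation, on which the lowest detected probe of an array stood at 6.75 to 6.94. All 8 hepatocyte markers, among them ALB (15.6 to 15.8), were detected on all 8 arrays. A pair of arrays stood apart from the others, 2D replicate 1 and static 3D replicate 1. They detected 6 and 3 of 12 macrophage markers against 11 or 12 on the other arrays, and 1 of 7 mesenchymal markers against 6 or 7. The mean level of the macrophage markers was 7.11 and 7.10 there against 9.38 to 10.7 elsewhere, with the defining gene C1QB at 5.45 and 5.44, below the lowest detected level. Genes of dividing cells averaged 10.1 and 9.54 there against 6.98 to 7.74. The mean of the hepatocyte markers was 12.6 on 2D replicate 1 and 13.8 to 14.8 on the other 7 arrays. What part these other cells had in the results was not tested. Differences of each measured member, of each list's median and of the list genes that these 2 arrays move most are also given without both.

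UGT1A1, the transferase that conjugates bilirubin, was the conjugation gene whose level followed the culture format. Its deposited intensities were 682, 611 and 617 in 2D, 1010, 969 and 856 in static 3D, and 1120 and 1690 in perfused 3D. On the log2 scale these became 8.63, 8.51 and 8.40 in 2D, 9.39, 9.61 and 9.03 in static 3D, and 10.04 and 10.34 in perfused 3D. Every static array lay above every 2D array, and both perfused arrays lay above every static array. The group means were 8.51 ± 0.12 (SD, n = 3), 9.34 ± 0.29 (SD, n = 3) and 10.19 ± 0.21 (SD, n = 2). Of 11031 genes, 26 (0.236%) had their 3 groups fully apart in this rising order, and 19 (0.172%) in the opposite order. Such small shares follow in part from the number of arrays per group. UGT1A1 was the only gene in the rising order among the conjugation genes and the 14 other gene lists followed. The rising order of UGT1A1 was noticed after its values were seen. In these bulk RNA samples, more cells that express a gene and more RNA per cell cannot be told apart.

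The differences of UGT1A1 were 0.83 (SE 0.24, 95% interval 0.28 to 1.38) for static 3D against 2D, 1.68 (SE 0.27, interval 1.07 to 2.29) for perfused 3D against 2D, and 0.85 (SE 0.27, interval 0.23 to 1.46) for perfused against static 3D. The perfused level was thus 3.21-fold that of 2D, with every array in that direction. No difference passed the test across all genes. By limma with Benjamini-Hochberg adjustment over 11031 genes, the adjusted p was 0.940 for static 3D against 2D, 0.534 for perfused 3D against 2D and 0.9996 for perfused against static 3D. The unadjusted p-values from the same limma fit were 0.00781, 1.94e-04 and 0.0125, and by that p UGT1A1 ranked 71, 4 and 47 among the genes tested. The ranks moved with the processing: over the other settings fitted per gene they ran from 21 to 969, from 2 to 135 and from 18 to 930. With the chip as a fixed block they were 189, 135 and 930, and with median scaling 969, 21 and 108. Without 2D replicate 2 the first 2 were 393 and 28.

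The UGT1A1 differences were as large without the 2 arrays that stood apart, at 0.87, 1.74 and 0.87 in the same order. With the bead chip as a fixed block they were 0.81, 1.62 and 0.81. Only static 3D lay on both chips, so that block rests on static 3D replicate 1 against the other static arrays. As that array stood apart, the block cannot tell a chip effect from the array itself. The chips split the groups unevenly: 1 chip held static 3D replicate 1 and both perfused arrays, the other held the remaining 5, and no chip held both 2D and perfused arrays. Over the 22 other settings tried, the perfused against 2D difference of UGT1A1 kept its sign, between 1.18 and 1.83, and its adjusted p was never under 0.191. The gene has 1 probe, and whether it lies in the exon of UGT1A1 or in the exons that UGT1A genes share was not analysed here.

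**Figure D1:**
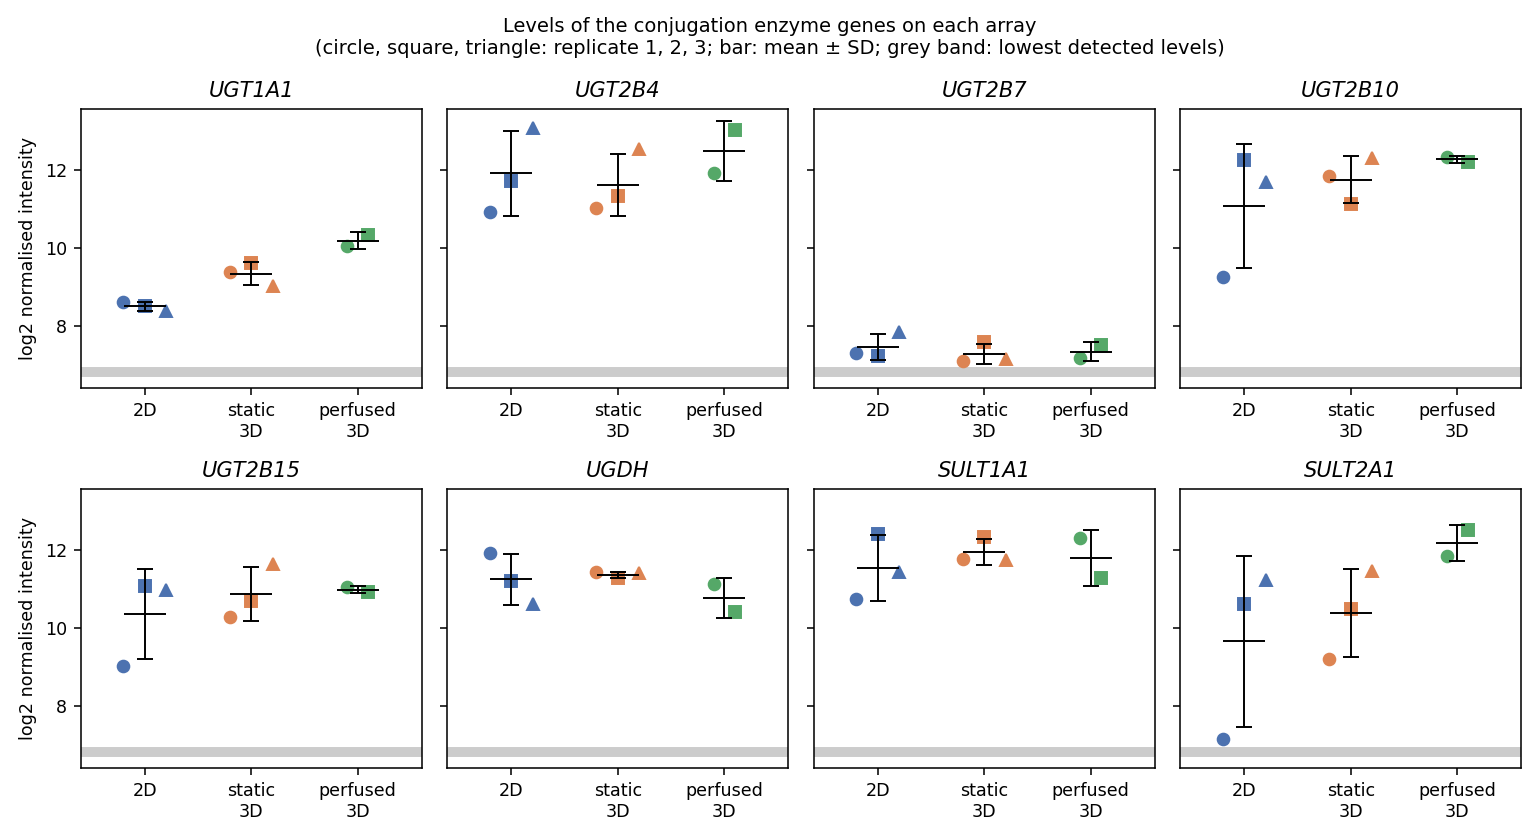
Log2 normalised intensity (vertical axis) of the 8 measured conjugation genes on each array, by culture format. Circles, squares and triangles are replicates 1, 2 and 3, bars are means ± SD, and the grey band is the range of the lowest detected level over arrays (6.75 to 6.94). The formats of UGT1A1 lie at 3 separate heights, the groups of UGT2B4, UGT2B10 and UGT2B15 overlap, and SULT2A1 spans from 7.17 on 2D replicate 1 to 12.49 on perfused 3D replicate 2.

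The other measured UGT1A genes did not share this order. UGT1A6, which conjugates small phenols, read 10.11, 9.61 and 12.07 in 2D, 9.19, 10.12 and 11.22 in static 3D, and 10.08 and 12.15 in perfused 3D. UGT1A9, a transferase for bulky phenols, read 7.26, 8.94 and 10.59, then 6.72, 8.85 and 9.88, then 9.04 and 10.81. UGT1A10, better known from the gut, read 7.10, 9.17 and 10.20, then 6.38, 9.24 and 9.70, then 9.21 and 10.31. In all 3 genes, and in UGT1A7, the highest array of each format was 2D replicate 3, static 3D replicate 3 and perfused 3D replicate 2, and the formats overlapped. Whether the probes of these UGT1A genes share signal, through shared exons or cross-hybridisation, was not tested, so their profiles may not be separate observations.

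Across formats, arrays could be more alike than within one. The closest pair of all 8, with r = 0.976 over all genes tested, was static 3D replicate 2 with perfused 3D replicate 1. Almost as close to each of them was 2D replicate 2 (r = 0.976 with either). The array closest to 2D replicate 1 was static 3D replicate 1 (r = 0.921), the other that stood apart, and no perfused array stood apart with them. Within formats the closest pair was static 3D replicates 2 and 3 (r = 0.969), and the least close was 2D replicates 1 and 2 (r = 0.872). These correlations are across genes, which are not independent. The labels do not tie arrays of different formats to each other, and no pairing was used.

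UGT2B4, which conjugates bile acids, followed the same arrays as those UGT1A genes. Its level was 10.93, 11.72 and 13.06 in 2D, 11.02, 11.32 and 12.52 in static 3D, and 11.93 and 13.01 in perfused 3D. The groups overlapped, and the spread within each (SD 1.08, 0.79 and 0.77) was about as large as the differences, -0.29 (SE 0.60), 0.57 (SE 0.67) and 0.85 (SE 0.67) for static against 2D, perfused against 2D and perfused against static. They were -0.47, 0.08 and 0.55 without both arrays that stood apart. Its 2 detected probes disagreed. The dimmer probe had intensities of 695, 999 and 1464 in 2D, 711, 879 and 1605 in static 3D, and 727 and 854 in perfused 3D, and gave differences of -0.02, -0.34 and -0.32. On perfused 3D replicate 2 the brighter probe was at its highest, 9059, while the dimmer one was in the lower part of its range, so the perfused differences of UGT2B4 change sign with the probe.

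UGT2B10, which conjugates amines at their nitrogen, and UGT2B15, which conjugates androgens, had similar profiles. UGT2B10 read 9.27, 12.25 and 11.69 in 2D, 11.83, 11.12 and 12.29 in static 3D, and 12.33 and 12.21 in perfused 3D. UGT2B15 read 9.03, 11.08 and 10.98 in 2D, 10.28, 10.70 and 11.62 in static 3D, and 11.04 and 10.91 in perfused 3D. In both genes 2D replicate 1 was far below the other 7 arrays and the groups overlapped. As a description, their correlation was r = 0.904 over the 8 arrays and 0.633 over the 6 left without the 2 that stood apart. This likeness was not particular to the pair. SULT2A1, also lowest on 2D replicate 1, had r = 0.854 with UGT2B10 and 0.885 with UGT2B15 over the 8 arrays. Over the 6 arrays these were 0.576 and 0.162.

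The differences of UGT2B10 were 0.68 (SE 0.69) for static 3D against 2D, 1.20 (SE 0.77, interval -0.57 to 2.97) for perfused 3D against 2D and 0.52 (SE 0.77) for perfused against static 3D. Without 2D replicate 1 they were -0.22, 0.30 and 0.52, so that array sets the sign of the first and most of the second. Leaving out both arrays that stood apart gave -0.27, 0.30 and 0.56. UGT2B15 gave 0.51 (SE 0.56), 0.61 (SE 0.63) and 0.10 (SE 0.63), and without 2D replicate 1 the first 2 became -0.16 and -0.05. Without both they were 0.13, -0.05 and -0.19. A second UGT2B15 probe was not detected on any array, with intensities of 255 to 441. The UGT2B genes are similar in sequence, and cross-hybridisation between them was not tested.

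UGT2B7, which conjugates morphine and many other drugs, was detected on all 8 arrays but close to background. Its level was 7.34, 7.24 and 7.85 in 2D, 7.13, 7.61 and 7.16 in static 3D, and 7.19 and 7.53 in perfused 3D. The whole range was 0.73, and the groups overlapped. The 95% intervals of its differences were -0.79 to 0.43, -0.80 to 0.56 and -0.62 to 0.74, so a difference in signal of more than 0.80 either way lay outside them. These intervals are for the signal of 1 probe near background and do not bound the change in the gene's RNA. The differences were -0.16, -0.19 and -0.03 without both arrays that stood apart.

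UGDH, the cofactor enzyme, was the measured member with its lowest mean in perfused 3D. Its level was 11.92, 11.19 and 10.61 in 2D, 11.42, 11.28 and 11.39 in static 3D, and 11.13 and 10.41 in perfused 3D. Static and 2D arrays overlapped, and so did perfused and 2D arrays, but both perfused arrays were below every static array. The static arrays were tight (11.36 ± 0.07, SD, n = 3) beside those of 2D (11.24 ± 0.66, SD, n = 3). The differences were 0.12 (SE 0.34, but -0.09 with median scaling), -0.47 (SE 0.38) and -0.59 (SE 0.38, interval -1.47 to 0.29), and none passed limma's test (adjusted p = 0.984, 0.964 and 0.9996). Leaving out both arrays that stood apart gave 0.44, -0.13 and -0.56.

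Among the sulfotransferases, SULT2A1, which sulfates DHEA and bile acids, spanned the widest range of any member, 5.32 on the log2 scale. Its level was 7.17, 10.61 and 11.22 in 2D, 9.22, 10.48 and 11.46 in static 3D, and 11.85 and 12.49 in perfused 3D. Both perfused arrays were above every other array, while static and 2D arrays overlapped. The 2 arrays that stood apart held the lowest SULT2A1 value of their format, and 2D replicate 1 was close to background. They are the arrays with few macrophage markers and high levels of dividing-cell genes, whose part in this was not tested.

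SULT2A1 in perfused 3D was 2.51 above 2D (SE 1.12, interval -0.05 to 5.06), or 5.68-fold, and 1.79 above static 3D (SE 1.12, interval -0.77 to 4.34). The static level was 0.72 (SE 1.00) above that of 2D. None passed limma's test (adjusted p = 0.964, 0.9996 and 0.965). Without 2D replicate 1, perfused 3D was 1.26 above 2D and static 3D was 0.53 below it (difference -0.53). Without both arrays that stood apart, the differences were 0.06 for static against 2D, 1.26 for perfused against 2D and 1.20 for perfused against static 3D. With the chip as a block they were 1.30, 4.25 and 2.95, but that block rests on static 3D replicate 1, which stood apart.

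SULT1A1, the sulfotransferase for phenols, read 10.74, 12.41 and 11.43 in 2D, 11.77, 12.33 and 11.73 in static 3D, and 12.29 and 11.28 in perfused 3D. The groups overlapped, with the highest value of each format on 2D replicate 2, static 3D replicate 2 and perfused 3D replicate 1. The differences were 0.41 (SE 0.44), 0.26 (SE 0.49) and -0.15 (SE 0.49, but 0.036 with median scaling). Without 2D replicate 1 the first was 0.024, and without both arrays that stood apart they were 0.11, -0.13 and -0.24. Of its 5 probes 2 were detected, and the second gave -0.05, 0.02 and 0.06. SULT1A1 has near-identical relatives, so its signal may include theirs, which was not tested. As a description over the 6 arrays, SULT1A1 ran against UGT2B4 (r = -0.956), whereas over all 8 the value was -0.112.

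SULT1E1, which sulfates estrogens, has 1 probe on the array. Its intensities were 216, 290 and 261 in 2D, 245, 314 and 311 in static 3D, and 239 and 238 in perfused 3D. Its detection p was 0.381 or higher on every array, so SULT1E1 was not well above background in any format and no fold was computed.

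**Figure D2:**
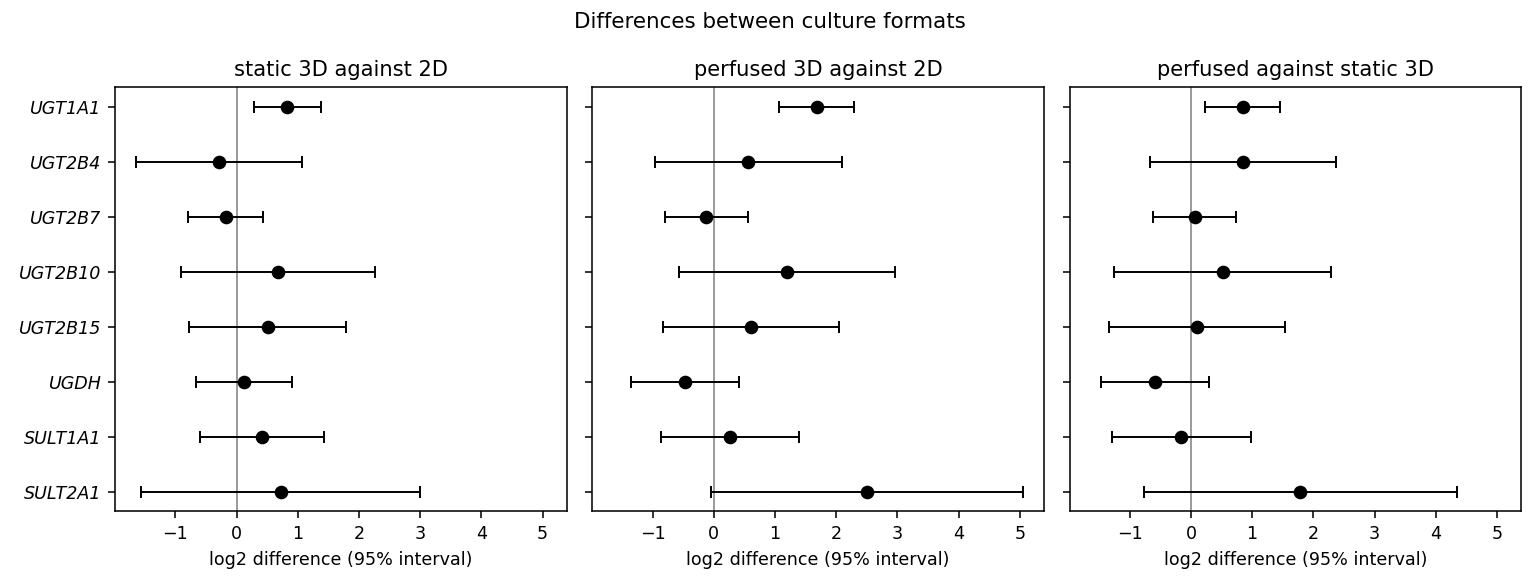
Log2 difference between culture formats (horizontal axis) for the 8 measured conjugation genes, one panel per comparison. Points are limma estimates and bars their 95% intervals. Only the intervals of UGT1A1 leave out 0 in the 3 panels, at 0.28 to 1.38, 1.07 to 2.29 and 0.23 to 1.46, before any adjustment over genes, and that of SULT2A1 in perfused 3D against 2D just reaches it (-0.05 to 5.06).

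Static 3D against 2D asks how scaffold and monolayer cultures differ without flow. The number of cells seeded differs together with the scaffold here, and their parts cannot be told apart. Static 3D replicate 1 also lay on a chip without 2D arrays. None of the 8 measured conjugation genes passed the test, nor did any of the 11031 genes (0% called). At an unadjusted p under 0.05 there were 519 genes (4.7%), 1 of them a member, UGT1A1. The groups did not overlap for 1 of 8 members, UGT1A1, against 10.1% of all genes (4.96% higher and 5.18% lower). The members' median difference was 0.46, with 6 of 8 above 0, beside a median of 0.00 over all genes. Without 2D replicate 1 the members' median was -0.19, so its sign rests on that array. It was 0.083 without both arrays that stood apart.

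For perfused 3D against 2D, scaffold, flow, bead chip and the number of cells seeded differ together and cannot be told apart. In this comparison 0 of 8 members passed the test, against 1 of 11031 genes (0.00907%). That gene was CYP3A4, a cytochrome P450 of drug oxidation, not detected on the 6 arrays of 2D and static 3D and at 9.06 and 9.53 in perfused 3D. Groups did not overlap for UGT1A1 and SULT2A1, both higher, which is 2 of 8 against 20.9% of all genes (10.8% higher and 10.1% lower). At an unadjusted p under 0.05 there were 467 genes (4.23%), UGT1A1 among them. The members' median was 0.59 beside 0.01 over all genes, and 6 of 8 were above 0. Without 2D replicate 1 that median was 0.012. With the chip as a block it was 1.27, a value that rests on static 3D replicate 1, which stood apart.

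For perfused against static 3D, which have the scaffold in common, 0 of 8 members passed the test, and the 1 gene that did (0.00907%) was again CYP3A4. UGT1A1 and SULT2A1 were higher without overlap and UGDH lower, which is 3 of 8 against 17.3% of all genes (8.95% higher and 8.31% lower). At an unadjusted p under 0.05 there were 207 genes (1.88%), UGT1A1 among them. The members' median was 0.31 beside 0.00 over all genes, with 6 of 8 above 0. Leaving out single arrays moved that median between 0.21, without static 3D replicate 2, and 0.59, without static 3D replicate 3. The comparisons share groups, so their counts are not independent of each other.

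**Figure D3:**
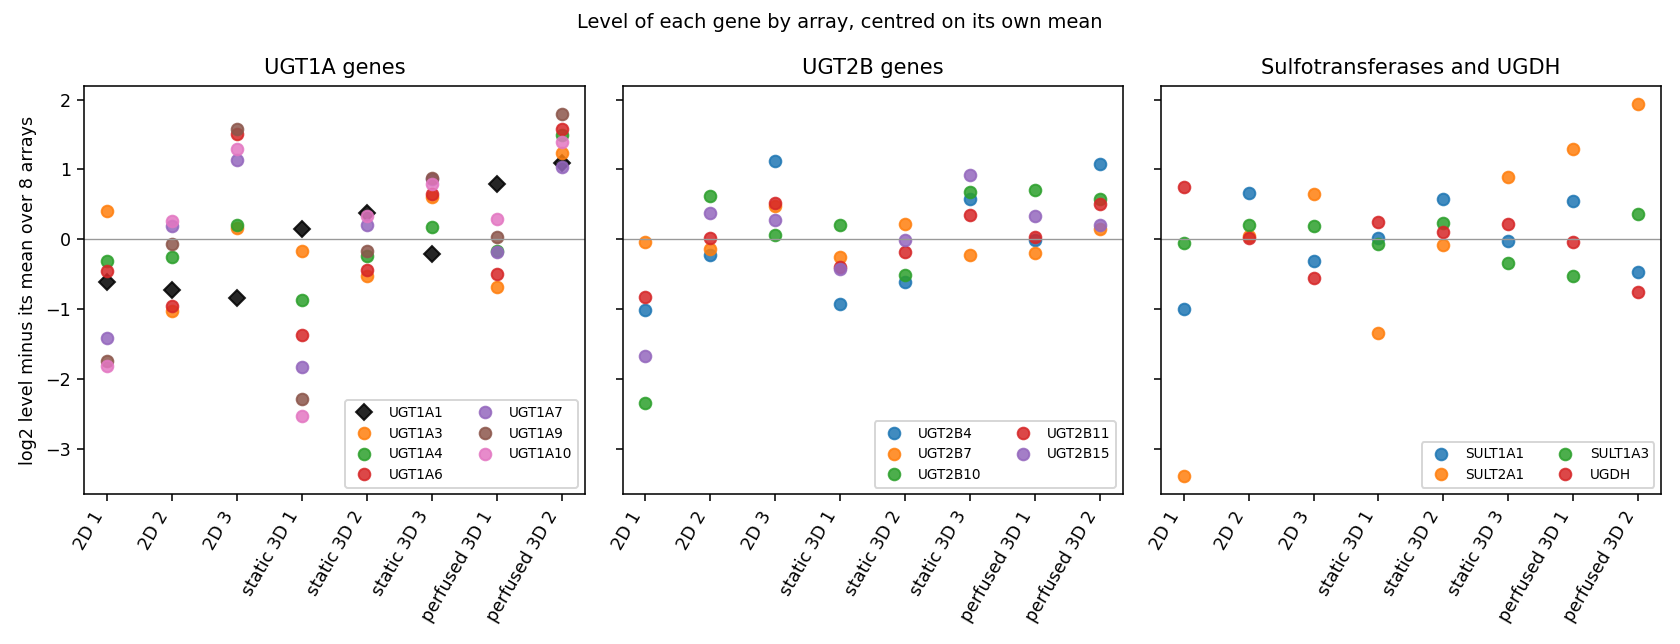
Log2 level of each gene minus its own mean over the 8 arrays (vertical axis), by array, for the UGT1A genes, the UGT2B genes, and the sulfotransferases with UGDH. UGT1A1 (black diamonds) is low on all 3 arrays of 2D and high on both of perfused 3D, while UGT1A6, UGT1A7, UGT1A9 and UGT1A10 are highest on 2D replicate 3, static 3D replicate 3 and perfused 3D replicate 2.

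Other genes of the pathway, taken from lists of known function, also gave no call in any comparison. Of 15 other UGT genes listed, 10 were tested. Their median difference was -0.21 for static 3D against 2D, with 4 of 10 above 0, 0.48 for perfused 3D against 2D, and 0.81 for perfused against static 3D, with 9 of 10 above 0 in each of the last 2. Without both arrays that stood apart the medians were -0.15, 0.22 and 0.26. UGT1A4, which conjugates amines, differed by 0.98 (SE 0.50) in perfused against static 3D, with overlap. It was near background, detected on 4 of 8 arrays. Its level was 6.18, 6.81 and 7.23 in static 3D, with only the last detected, and 6.89 and 8.55 in perfused 3D. UGT3A1, which uses N-acetylglucosamine in place of glucuronic acid, was the only one of the 10 genes whose groups did not overlap. Its level was 5.89, 8.96 and 8.41 in 2D, 7.30, 8.17 and 9.01 in static 3D, and 9.11 and 9.45 in perfused 3D. The perfused arrays were above all others, by 1.53 (SE 0.86) over 2D and 1.12 (SE 0.86) over static 3D. The level on 2D replicate 1 was below the lowest detected one, and without that array UGT3A1 in perfused 3D was 0.60 (SE 0.53) above 2D. Without both arrays that stood apart it was 0.69 above static 3D.

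Of 10 other SULT genes, 4 were tested, with medians of -0.15, -0.15 and 0.00, or -0.26, -0.28 and -0.02 without both arrays that stood apart. SULT1C2, better known from fetal tissues, had the largest difference of them, 0.60 (SE 0.77) for perfused against static 3D. It was near background, detected on 4 of 8 arrays, and read 6.68, 8.02 and 6.45 in static 3D and 8.65 and 6.66 in perfused 3D. SULT1B1, which sulfates thyroid hormone, differed by -0.13 (SE 0.25), -0.10 (SE 0.28) and 0.03 (SE 0.28). It was detected on 3 of 8 arrays, with levels of 6.41 to 7.12 over all arrays.

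The genes that supply the cofactors, 9 tested of 13, had medians of -0.26, 0.08 and 0.19, or -0.36, -0.02 and 0.27 without both arrays. UGP2, which makes UDP-glucose, the substrate of UGDH, read 12.67, 12.24 and 12.81 in 2D and 11.82, 11.98 and 11.96 in static 3D, with no overlap. It differed by -0.65 (SE 0.24), and was at 11.99 and 12.61 in perfused 3D. SLC35B3, which carries PAPS into the Golgi, read 8.19, 7.66 and 8.28 in 2D and 7.23, 6.98 and 7.34 in static 3D, again with no overlap and a difference of -0.86 (SE 0.30). Neither passed limma's test (adjusted p of at least 0.940 for every gene of the list). The PAPS synthases PAPSS1 and PAPSS2, which supply the sulfotransferases, differed by -0.26 (SE 0.23) and 0.09 (SE 0.23) in static 3D against 2D, and by 0.10 (SE 0.26) and 0.11 (SE 0.25) in perfused 3D against 2D.

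Enzymes that undo conjugation, 5 tested of 6, had medians of 0.15, 0.28 and 0.22, or 0.08, 0.11 and 0.15 without both arrays. GUSB, the β-glucuronidase, was higher without overlap in static 3D than in 2D by 0.60 (SE 0.34), and by 0.31 without 2D replicate 1. Other conjugating enzymes, 11 tested of 17, had medians of 0.09, 0.37 and 0.03, or 0.13, 0.05 and 0.11 without both arrays. The acyl-CoA synthetases ACSM2B and ACSM5, which activate medium-chain acids, were higher without overlap in perfused 3D than in 2D, by 2.05 (SE 0.91) and 1.47 (SE 0.62). On 2D replicate 1 both were below the lowest detected level, ACSM2B at 6.23 and ACSM5 at 6.65. Without that array the differences were 1.25 (SE 0.76) for ACSM2B and 0.79 (SE 0.37) for ACSM5. Of the 11 genes, 4 were higher and 1 lower without overlap in perfused 3D against 2D, beside 10.8% and 10.1% of all genes. The lower gene, HNMT, read 10.35, 10.42 and 10.45 in 2D, 8.97, 10.26 and 9.98 in static 3D, and 9.82 and 10.05 in perfused 3D. Its differences from 2D were -0.67 (SE 0.33) for static 3D, also without overlap, and -0.47 (SE 0.37) for perfused 3D. A second detected HNMT probe overlapped between formats.

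Regulators of these genes, 11 tested of 20, had medians of 0.17, 0.32 and -0.11, or 0.23, 0.23 and -0.10 without both arrays. The liver factors FOXA3 and FOXA2 were higher without overlap in static 3D than in 2D, by 1.42 (SE 0.44) and 0.58 (SE 0.22). FOXA3 read 9.22, 9.46 and 8.47 in 2D, 11.35, 9.71 and 10.36 in static 3D, and 10.17 and 9.70 in perfused 3D. ONECUT1 was at its highest in static 3D, 0.79 (SE 0.35) above 2D, and perfused 3D was below static without overlap (-0.72, SE 0.39). Without static 3D replicate 1 the ONECUT1 differences were 0.40 and -0.33. Of the xenobiotic receptors known to act on UGT1A1, NR1I3 has 2 probes, of which 1 was detected on static 3D replicate 1 alone (detection p 0.0312, intensities of 242 to 408 over arrays) and the other on no array. NR1I3 was therefore near background and not tested. NR1I2 was not analysed here. AHR, also among the regulators, was detected on all 8 arrays at 11.2 to 12.4. It differed by 0.52 (SE 0.34), 0.32 (SE 0.38) and -0.20 (SE 0.38), with overlap in each comparison. A second, dimmer AHR probe read 8.19, 7.13 and 7.95 in 2D, 7.46, 7.22 and 7.31 in static 3D, and 7.33 and 7.49 in perfused 3D.

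The efflux and uptake transporters of conjugates, 6 tested of 9, had medians of 0.37, 0.36 and -0.01, or 0.02, 0.25 and -0.04 without both arrays. ABCC3, which exports glucuronides to blood, was higher without overlap in static 3D than in 2D, by 0.71 (SE 0.28), and by 0.27 without both arrays that stood apart. ABCC2, which exports them to bile, was higher without overlap in perfused 3D than in 2D, by 0.45 (SE 0.38). In the same comparison ABCC4 was lower without overlap, with a difference of -0.89 (SE 0.50). It read 8.8, 7.3 and 7.5 in 2D and 7.0 and 6.9 in perfused 3D, where it was near the lowest detected level. SLCO2B1 differed by 1.04 (SE 0.53), with overlap. None of these genes passed limma's test, with an adjusted p of at least 0.940 for the lists in static 3D against 2D, 0.964 in perfused 3D against 2D and 0.9996 in perfused against static 3D.

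The gene most like each member was looked for over the 6 arrays left without the 2 that stood apart, by Pearson's r, as a description of few points out of many genes. UGT2B4 was most like its neighbour in the family UGT2B11 (r = 0.995), with the brightest probe standing for each gene. A second detected UGT2B11 probe disagreed. On 2D replicates 2 and 3 it read 12.9 and 11.6, against 12.8 and 13.4 for the brightest. On static 3D replicates 2 and 3 it read 11.86 and 11.89 against 12.65 and 13.18, and on perfused 3D replicates 1 and 2 it read 12.7 and 10.9 against 12.9 and 13.3. Cross-hybridisation was not tested. SULT2A1 was most like GGT3P (r = 0.990), UGT1A1 most like PLCXD1 (r = 0.986), UGT2B10 most like BDH1 (r = 0.987) and UGT2B15 most like PPP1R13B (r = 0.987). UGT2B7 went with PLEK2 (r = 0.990), UGDH with FAM149B1 (r = 0.996) and SULT1A1 with CFC1 (r = 0.998). Between 11 and 198 genes passed r = 0.95 for a member, 22 of them for UGT1A1.

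**Figure D4:**
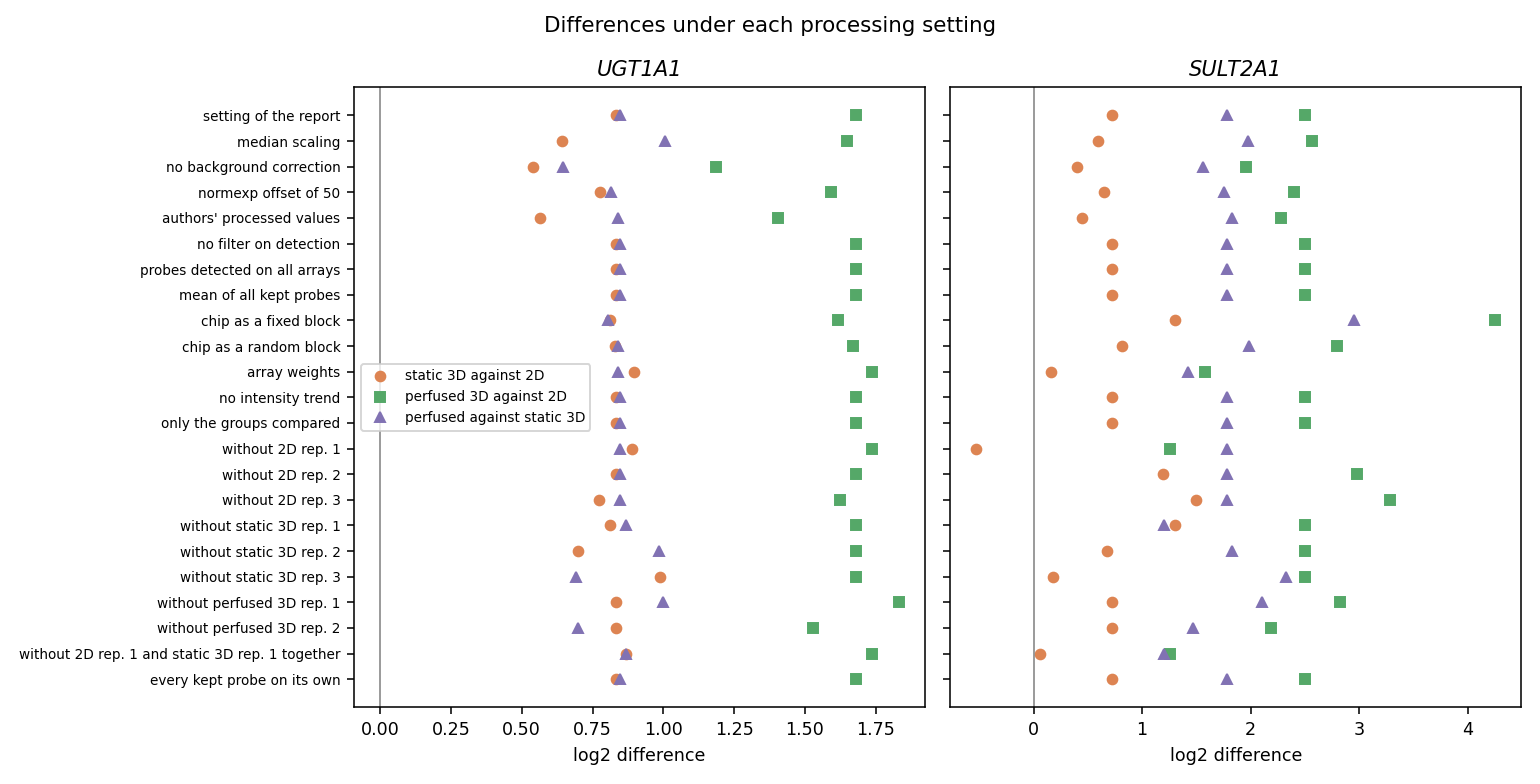
Log2 differences of UGT1A1 and SULT2A1 (horizontal axes, each with its own scale) under the setting of the text and under each other processing setting (vertical axis), with 1 marker per comparison. The perfused against 2D difference lies between 1.18 and 1.83 for UGT1A1 and between 1.26 and 4.25 for SULT2A1, and the static against 2D difference of SULT2A1 crosses 0 when 2D replicate 1 is left out.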

How the data were processed

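RNA was hybridised to 8 one-colour arrays on 2 bead chips, per the labels. The authors deposited intensity per probe without normalisation between arrays, and a detection p-value per probe that moves in steps of 1 in 770. They also deposited log2 values. How these were normalised, and the scanner software, are not given in the labels or headers. Those values rank probes as the intensity of the same array does (Spearman 1), their medians are 7.46 to 7.64, and they are neither centred nor ratios.

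From the intensities, normexp correction by detection p-value (offset 16), quantile normalisation and log2 were computed with limma 3.58.1 in R 4.3.3. Of 47323 probes, 30113 have 1 annotated symbol, 8 several and 17202 none listed. Probes with a detection p under 0.05 on at least 2 arrays were kept (18556, of which 14115 named), and the brightest stood for its gene. The fit used group means of all 8 arrays, lmFit and eBayes with trend, and Benjamini-Hochberg over 11031 genes at 0.05 (two-sided). Alternatives were other normalisations, backgrounds, filters, probe rules, chip blocks, array weights and arrays left out. Leaving out arrays for genes that are not members was added after seeing the data. The fit was run on simulated data with independent noise, no array that stood apart, and each gene's spread capped at the median over genes. The members' median SE was 0.50 to 0.56 over the comparisons, against 0.29 to 0.33 for all genes. That run therefore does not show how the fit does for genes as variable as these. The number of arrays limits the precision. Members of the set and lists were chosen with earlier results of these data known. Text names all 9 members, from each list up to 3 genes of smallest p per comparison, some fixed genes, and the gene most like each member. CYP3A4 is one of the fixed genes. UGT1A6, UGT1A7, UGT1A10 and PAPSS2 were chosen after their values were seen. Sequence windows came from RefSeq and were aligned with Biopython 1.88.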

Additional observations from a re-analysis of the deposited data

How the results depend on the processing

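Of 528 differences of the 8 measured genes recomputed under 22 other settings, 496 kept their sign, and no member passed the test under any of them (smallest adjusted p 0.191, limma). Some settings change only the test, such as a fit without the intensity trend. Leaving out an array of the third group also leaves a difference as it was. Signs could not turn there, so the count of 496 overstates how stable they were. UGT1A1 kept its sign in the 3 comparisons under every setting tried. When arrays were left out one by one, the members' median for static 3D against 2D lay between -0.19 and 0.84. For perfused 3D against 2D it lay between 0.012 and 1.03, was 0.012 without both arrays that stood apart, and was 1.27 with the chip as a fixed block. That block is set by static 3D replicate 1 against the other static arrays, since only static 3D lay on both chips. Median scaling moved the median of all genes by -0.13 for static 3D against 2D and by 0.12 for perfused against static 3D, and turned UGDH to -0.090 and SULT1A1 to 0.036 there. The authors' log2 values turned the same 2 to -0.029 and 0.025. The chip as a fixed block turned UGT2B4 to 0.015 (static against 2D), UGT2B7 to 0.14 (perfused against 2D) and SULT1A1 to 0.017 (perfused against static). Array weights turned UGT2B7 to -0.014 and UGT2B15 to -0.063 in perfused against static 3D. Without both arrays that stood apart, UGT2B10 became -0.27 for static against 2D, UGT2B15 -0.054 and SULT1A1 -0.13 for perfused against 2D, and UGT2B7 -0.025 and UGT2B15 -0.19 for perfused against static 3D.

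Signs also turned within these ranges when arrays were left out one by one. For static 3D against 2D they were -0.22 to 1.27 for UGT2B10, -0.16 to 0.87 for UGT2B15, -0.53 to 1.50 for SULT2A1, -0.77 to 0.29 for UGT2B4, -0.33 to 0.0099 for UGT2B7 and -0.19 to 0.46 for UGDH. For perfused 3D against 2D they were -0.054 to 0.97 for UGT2B15, -0.24 to 0.76 for SULT1A1 and -0.29 to 0.070 for UGT2B7. For perfused against static 3D they were -0.11 to 0.23 for UGT2B7, -0.19 to 0.48 for UGT2B15 and -0.66 to 0.35 for SULT1A1. The cause was not tested. With 2 perfused arrays, leaving out 1 leaves a lone sample that is assumed to vary like the other groups. No paired analysis was run, because the labels give no replicate numbers that the groups share. If arrays of different formats came from the same donors, the spread used here would include differences between donors, which was not tested.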
